A study of Mus musculus with 2 samples.

Results

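Epithelial cells were found among cells sorted for the leukocyte surface protein CD45 from mouse mammary tumours, and this text describes them. They were chosen by their own counts in the deposited matrices: a cell needed at least 200 detected genes and at most 10% mitochondrial transcripts, at least 1 Epcam molecule, at least 3 molecules of Krt8 and Krt18 together and 0 of Ptprc, the gene that encodes CD45. It also had to hold under 20 C1qa, C1qb and C1qc molecules per 10000, under 50 of S100a8 and S100a9 per 10000, and under 5 molecules of Sparc and Igfbp7, which mark macrophages, neutrophils and stromal cells. In all, 97 of 12351 kept cells met the rule, 90 of 7357 from the PyMT-M tumour and 7 of 4994 from the PyMT-N tumour. A molecule here is a unique molecular identifier (UMI), the tag that marks 1 captured transcript. Because the rule used these genes, their levels, including the lack of Ptprc, describe the choice and are not findings.

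Both tumours were grown from cell lines named for PyMT (polyoma middle T), a viral oncogene whose expression in the mouse gland gives breast tumours. Each was raised by injecting cells of 1 line into a mammary gland, and was collected 4 weeks on, when it measured between 0.7 and 1 cm across. The sort gate took living cells that bound anti-CD45 and excluded DAPI, a dye of dead cells, and the library chemistry read the 5′ ends of transcripts. There was 1 library per line, so no difference between lines or between groups of cells could be tested against replicates. The labels do not say what M and N stand for, nor the strain, sex or age of the hosts or how many tumours a library holds. The oncogene was not analysed here, so cells of the injected line and epithelial cells of the host gland cannot be told apart. The libraries held 43977988 and 14907736 UMIs, with medians of 5070 and 1955 per barcode. They shared 60 barcode sequences, and 0 epithelial cells carried any of these.

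The milk-producing gland has an inner luminal layer, marked by keratins 7, 8, 18 and 19, and an outer contractile basal layer, marked by keratins 5 and 14. Luminal cells comprise oestrogen-receptor-bearing cells and an alveolar lineage, which matures under the transcription factor ELF5 and secretes caseins, whey proteins and small defence proteins into milk. Polyoma middle T drives signalling from the cell membrane and gives rise to luminal-type tumours.

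The keratin condition removed most of the cells with Epcam. In PyMT-M, 489 kept cells had an Epcam UMI, 127 of these met the keratin minimum, 104 had no Ptprc, 92 were under the C1q limit, 92 under the S100 limit and 90 under the stromal limit. The share of kept cells was 1.22% (95% exact binomial interval 0.985 to 1.5) in PyMT-M and 0.140% (0.0564 to 0.289) in PyMT-N. All intervals given here cover counting error only and not variation between tumours. Just inside the limits, 16 of the 90 cells held 3 to 5 keratin UMIs, 8 held 1 Epcam UMI, 6 held C1q at 10 to 20 per 10000 and 4 held 1 to 4 stromal UMIs. Just outside, 53 cells failed only the keratin minimum, 12 of them with 1 or 2 UMIs, and 19 failed only for lack of Epcam. A further 11 cells failed only the C1q limit, 8 only the Ptprc condition and 2 only the stromal limit. The 8 cells with Ptprc held 1 to 3 Ptprc UMIs, Wfdc18 at 611 per 10000, and T and NK cell genes at 33.4 per 10000.

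The PyMT-M epithelial cells were deep. They held 1158626 UMIs, with 635, 12728 and 44962 UMIs in the lowest, median and highest cell, and a median of 3425 genes. The median was 5846 UMIs in the 3878 C1q macrophages of the same library, which are kept cells with Ptprc, without Epcam and with C1q at 20 per 10000 or more. It was 1553 in the 15 kept cells with 5 or more Sparc and Igfbp7 UMIs, no Ptprc and no Epcam, called stromal cells below. Both groups met the S100 limit, and the stromal cells the C1q limit too. Mitochondrial transcripts were under 1% in 16 of the 90 epithelial cells, or 17.8%, and in 12.6% of macrophages. Of the 19 epithelial cells under 5000 UMIs, 13 lay under that 1%, and their median mitochondrial share was 0.320% against 3.43% in the other 71. These 19 cells carried 2.81% of the epithelial UMIs, so summed levels rest almost wholly on the deeper 71 cells. Keratins 8 and 18 stood at 43.0 per 10000 in the shallow cells and 44.4 in the deeper ones, and Wfdc18 at 412 and 558. The keratin minimum of 3 UMIs asks for a higher level per 10000 in a shallow cell, so the keratin values describe the rule in part.

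**Figure D1:**
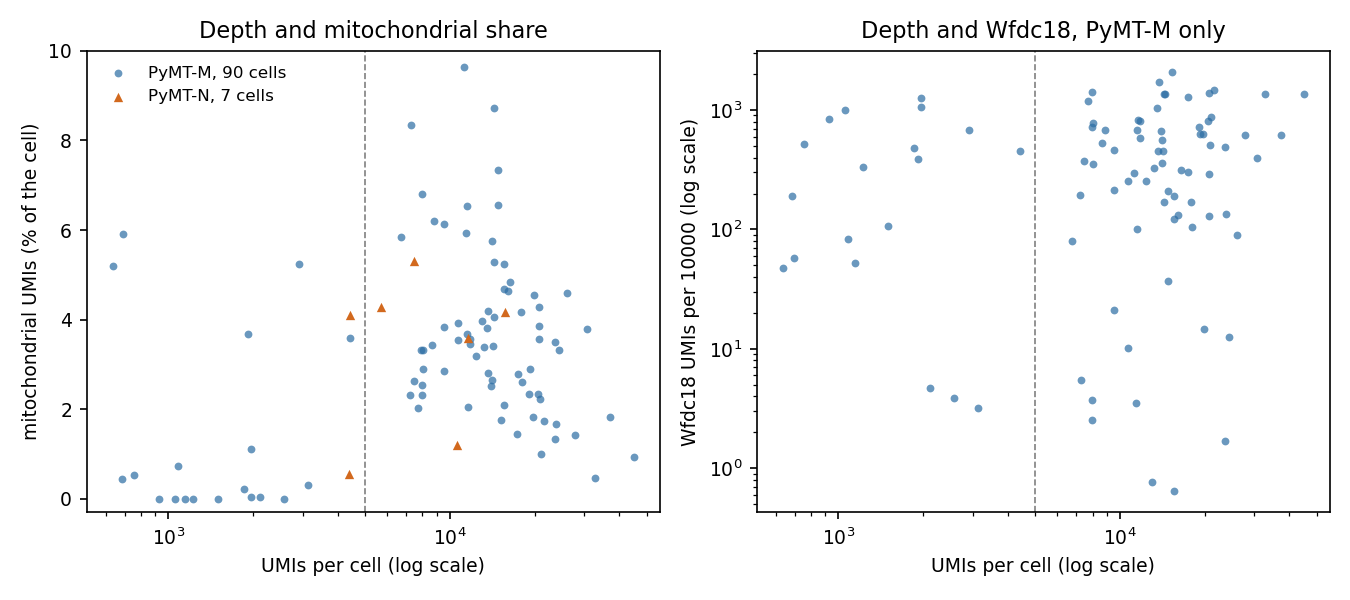
UMIs per cell on a log scale against the percent of mitochondrial UMIs (left, both libraries) and against Wfdc18 UMIs per 10000 on a log scale (right, PyMT-M only), 1 point per epithelial cell. The dashed line marks 5000 UMIs. 19 PyMT-M cells lie left of it, 13 of them under 1% mitochondrial UMIs, and both sides span high and low Wfdc18.

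Mitochondrial and ribosomal genes aside, the most abundant transcripts of these cells encode small secreted proteins. Wfdc18, which encodes a protein with a whey acidic protein (WAP) domain that is made by the gland outside lactation, lies in GRCm38 at chr11:83709015-83711348 on the plus strand. Scgb1b27 and Scgb2b27 encode the 2 chains of a secreted secretoglobin dimer of the kind known as androgen-binding protein, and lie next to each other on chromosome 7, at chr7:34021483-34022881 on the plus strand and chr7:34011921-34013942 on the minus strand. Lcn2, at chr2:32384633-32388252 on the minus strand, encodes lipocalin-2, an iron-scavenging defence protein. The promoters of these 4 genes are shown because their transcripts led the levels in these cells and, for the secretoglobin pair, rose and fell together from cell to cell. Each window, from RefSeq on GRCm38.p6, runs from 250 bases before the annotated start to 50 bases after it, read in the direction of the gene. The windows are chr11:83708754-83709053 for Wfdc18, chr7:34021231-34021530 for Scgb1b27, chr7:34013893-34014192 for Scgb2b27 and chr2:32387690-32387989 for Lcn2. The Lcn2 window, set by the RefSeq start, lies wholly within the Lcn2 span given above, which is from GENCODE. The 2 annotations thus place the start of Lcn2 differently. Capitals mark matches on either strand to any of 4 motifs. The TATA box was searched as TATAAA. The core bound by STAT factors, which carry the prolactin signal, was searched as TTCNNNGAA. A core of the sites of SOX factors was searched as ACAAAG. A core of ETS sites, the family to which ELF5 and EHF belong, was searched as AGGAAG.
Wfdc18: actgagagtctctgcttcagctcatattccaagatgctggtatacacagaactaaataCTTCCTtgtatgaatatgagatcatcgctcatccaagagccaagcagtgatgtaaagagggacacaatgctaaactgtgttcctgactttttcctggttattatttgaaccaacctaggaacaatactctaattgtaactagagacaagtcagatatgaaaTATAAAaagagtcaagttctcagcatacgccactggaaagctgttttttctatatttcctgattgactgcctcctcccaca
Scgb1b27: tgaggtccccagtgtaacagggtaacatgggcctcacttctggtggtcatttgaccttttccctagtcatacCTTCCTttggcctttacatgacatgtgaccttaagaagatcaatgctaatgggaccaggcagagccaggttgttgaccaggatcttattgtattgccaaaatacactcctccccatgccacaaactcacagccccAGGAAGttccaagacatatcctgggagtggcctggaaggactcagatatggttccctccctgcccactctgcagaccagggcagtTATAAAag
Scgb2b27: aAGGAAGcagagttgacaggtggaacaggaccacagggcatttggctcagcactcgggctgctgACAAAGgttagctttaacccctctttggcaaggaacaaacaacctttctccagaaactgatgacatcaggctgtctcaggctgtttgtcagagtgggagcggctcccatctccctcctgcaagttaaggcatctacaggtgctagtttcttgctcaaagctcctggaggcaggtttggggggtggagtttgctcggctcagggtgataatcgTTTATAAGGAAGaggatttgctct
Lcn2: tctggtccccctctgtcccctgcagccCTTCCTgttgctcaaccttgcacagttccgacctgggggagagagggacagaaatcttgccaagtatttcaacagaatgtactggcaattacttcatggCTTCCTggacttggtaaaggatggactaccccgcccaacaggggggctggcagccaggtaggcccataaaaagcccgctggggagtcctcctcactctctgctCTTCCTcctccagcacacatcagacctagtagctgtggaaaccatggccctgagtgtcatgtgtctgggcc
TATAAA was read 31 bases before the annotated start of Wfdc18, on the gene's own strand. In Scgb1b27 it lay 42 bases after the annotated start on the gene's strand, in Scgb2b27 26 bases after it on the other strand, and the Lcn2 window held none. Of 32851 RefSeq promoter windows of this length, 13.6% held the TATA letters, 8.30% the STAT core, 18.7% the SOX core and 35.4% the ETS core. All 4 windows held the ETS core, the SOX core was read in Scgb2b27 alone, and the STAT core in none of the 4. The last ETS core of Scgb2b27 abuts its TATA letters without overlap, and no matches overlapped in the other windows. A match is a run of letters and not a shown binding site.

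Wfdc18 led these transcripts and had at least 1 UMI in every one of the 90 cells. It made up 55395 CPM (counts per 1000000) of their UMIs (95% exact Poisson interval 54967 to 55825), against 68.8 CPM in C1q macrophages and 135 CPM, 12 UMIs, in stromal cells. Per cell it ranged from 0.640 through a median of 368 to 2092 per 10000. Scgb2b27 reached 20651 CPM, with a median of 25.3 and a maximum of 1469 per 10000, and was seen in 72 cells. Scgb1b27 reached 15643 CPM in 63 cells, with a median of 2.25 and a maximum of 2100 per 10000. The secretoglobin levels were uneven: the 5 cells with the most UMIs of each gene held 51.4% of all Scgb2b27 and 67.7% of all Scgb1b27 UMIs, against 30.7% for Wfdc18. Secretoglobin and major urinary protein genes have close copies in the mouse genome, and no source used here says how reads shared between copies were counted, so the split between copies is uncertain.

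Milk and defence proteins followed. Lcn2 stood at 12540 CPM in 82 cells, with a median of 80.0 and a maximum of 524 per 10000. Csn3, which encodes kappa-casein, the milk protein that stabilises casein micelles, stood at 7258 CPM in 79 cells, with a median of 34.9 per 10000. Ltf, which encodes the iron-binding milk protein lactoferrin, stood at 1278 CPM but was seen in only 19 of the 90 cells. Of the other milk genes, Csn1s2a stood at 123 CPM and Csn1s1 at 31.9 CPM. Csn2 and Lalba, encoding beta-casein and alpha-lactalbumin, were at 0 UMIs, where a limit of 3 UMIs equals 2.59 CPM. Mup5, a major urinary protein gene, stood at 7377 CPM in 47 cells, and 5 cells held 79.0% of its UMIs. Pip, encoding prolactin-induced protein, stood at 2341 CPM in 35 cells. Clu, encoding the secreted chaperone clusterin, stood at 2367 CPM in 55 cells, and Aqp5, encoding a water channel of gland surfaces, at 2888 CPM in 85 cells. Car6 and Prol1, which encode a secreted carbonic anhydrase and a proline-rich tear and saliva protein, stood at 1081 and 793 CPM. As 1 tag counts 1 molecule at its 5′ end, these levels were not divided by length.

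Free RNA can give UMIs of these genes in macrophages too, so shares of cells were also taken after each cell was thinned to 2000 UMIs, which left 76 epithelial cells and 3688 macrophages. Before thinning the median depths were 12728 and 5846 UMIs. Wfdc18 was then seen in 92.1% of epithelial cells (83.6 to 97) and in 9.41% of macrophages (8.49 to 10.4), and in 100% and 22.0% without thinning. Lcn2 was seen in 92.1% and 1.82%, Scgb2b27 in 68.4% and 3.61%, Csn3 in 81.6% and 0.949%, and Aqp5 in 92.1% and 0.298%. Ltf was seen in 18.4% of thinned epithelial cells and 0.108% of macrophages. All of these shares were higher in the epithelial cells beyond counting error. By share of cells, Aqp5 and Lcn2 matched Wfdc18 in epithelial cells, yet of these genes Wfdc18 alone was seen in over 5% of thinned macrophages. The macrophage shares fell in the order of the summed epithelial levels. These were 55395 CPM for Wfdc18, 20651 for Scgb2b27, 12540 for Lcn2, 7258 for Csn3, 2888 for Aqp5 and 1278 for Ltf. The part of free RNA in the macrophage shares was not tested.

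**Figure D2:**
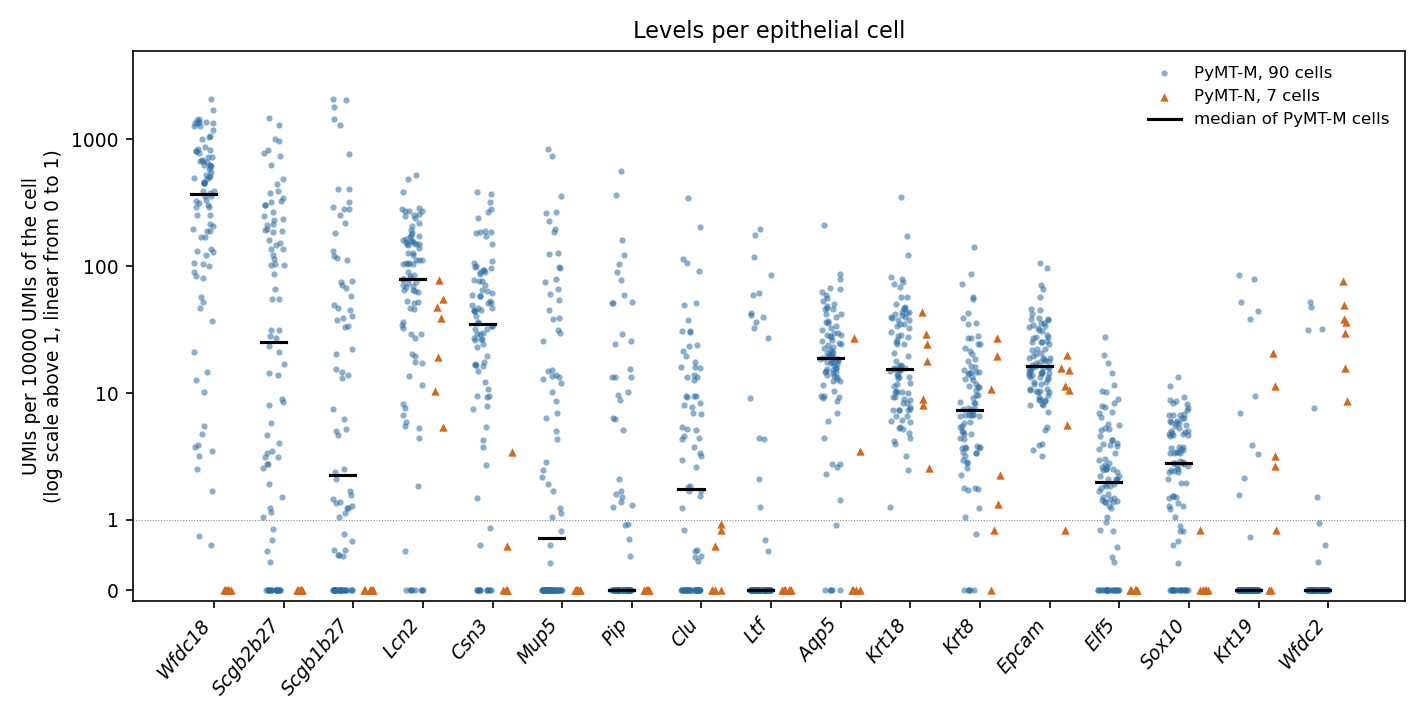
UMIs per 10000 UMIs of each epithelial cell for 17 genes, on an axis that is logarithmic above 1 and linear from 0 to 1. Circles are the 90 PyMT-M cells with their median as a bar, and triangles the 7 PyMT-N cells. Wfdc18 spans 0.640 to 2092 in PyMT-M and lies at 0 in all 7 PyMT-N cells, where Wfdc2 lies above most PyMT-M cells.

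Secreted genes divided the 90 cells. Among genes with a mean of 0.5 UMIs or more in the thinned cells, the Fano factor, the variance over the mean, which is near 1 for counting noise alone, was highest for Scgb1b27 at 200, Scgb2b27 at 104, Wfdc18 at 92.7, Mup5 at 55.2 and S100a6 at 48.3, followed by Clu at 34.6 and Rbp7 at 27.6. It was 3.17 for Epcam and 1.27 for Elf5. Across the 76 thinned cells, Spearman's rho between Scgb1b27 and Scgb2b27 was 0.78. Scgb2b27 also ran with Tcn2 at 0.68, Agt at 0.65 and Pip at 0.63, and against Rps2, a gene of the small ribosomal subunit, at -0.76. Wfdc18 ran with Csn3 at 0.57 and Mup5 at 0.53, and Lcn2 with Csn3 at 0.60, while Lcn2 and Scgb2b27 were at -0.28. These values describe 76 cells of 1 library that share their ambient RNA, and each gene's count is part of the same fixed total of 2000 UMIs, so that a very abundant transcript lowers the rest.

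Limits set after these levels had been seen split the cells into ranges without overlap: 37 cells with Scgb2b27 at 100 per 10000 or more, 12 with Ltf at 20 or more, 5 with Krt19 at 20 or more, and 36 with none of these. The nearest cells on either side stood at 86.3 and 101 for Scgb2b27, 9.09 and 27.2 for Ltf and 9.44 and 38.2 for Krt19. The ranges are cuts of continuous levels and not cell types, and the values below describe them without a test.

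Cells high in Scgb2b27 carried the secretoglobin partner and a set of salivary- and tear-type secretions. Scgb1b27 stood at 31536 CPM in these 37 cells against 474 CPM in the other 53, Mup5 at 14477 against 601, Pip at 4696 against 92.8, and Car6 at 1983 against 219. Tcn2, encoding a vitamin B12 carrier, stood at 2662 against 498 CPM, and Agt, encoding angiotensinogen, at 723 against 33.7 CPM. Without the cell with the most UMIs of the gene, Scgb1b27 stood at 20940 and Mup5 at 8421 CPM in the range. Csn3 was at 7360 against 7161 CPM, so kappa-casein did not follow this division. Krt18 was at 1322 against 4642 CPM and Ltf at 7.07 against 2491 CPM. Both contrasts rested largely on the 12 cells high in Ltf, which are among the 53. Those 12 held 1951 of the 2752 Krt18 UMIs and 1457 of the 1477 Ltf UMIs of the 53. In the 36 cells in none of the ranges, Krt18 stood at 1659 and Ltf at 52.9 CPM.

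Cells high in Ltf had more keratin than the rest. In these 12 cells Krt18 stood at 10919 CPM against 1581 CPM in the other 78, Krt8 at 4483 against 856, and Krt7 at 1158 against 163. Lcn2 was at 20455 against 11097 CPM and Mgst1, encoding a membrane glutathione transferase, at 2697 against 358. Aldh1a3, an aldehyde dehydrogenase gene used as a marker of luminal progenitors, stood at 767 against 4.08 CPM, but in 5 of the 12 cells only. Tpm1 and Anxa1, encoding tropomyosin and annexin A1, were at 2362 against 277 and at 1785 against 44.9 CPM. Single cells carried much of 3 of these genes: without the cell with the most UMIs of the gene, Anxa1 stood at 697, Krt7 at 742 and Aldh1a3 at 475 CPM in the range. Pip and Prol1 were at 0 UMIs in all 12 cells, and Wfdc18 ranged from 195 through 573 to 1279 per 10000, with 3 of the 12 below the median of the 90 cells.

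The 5 cells high in Krt19 lacked most of this programme. Wfdc18 stood at 0.767, 4.73 and 10.3 per 10000 in the lowest, median and highest of them, and Csn3, Mup5, Pip, Ltf, Sox10 and Kit were at 0 UMIs in all 5. In their place stood Wfdc2, a WAP-domain gene expressed by many duct epithelia, at 2813 CPM against 6.24 CPM in the other 85 cells. Ly6d, encoding a surface protein of the Ly6 family, stood at 3557 CPM and was at 0 in the other 85. S100a6, encoding calcyclin, stood at 11913 against 102 CPM, and Krt7 at 2178 against 257. Cited1 and Foxa1, encoding regulators tied to oestrogen-receptor-bearing luminal cells, were seen in 5 and 3 of the 5 cells and in none of the other 85, at 910 and 221 CPM. Cldn4, a tight-junction gene, stood at 1103 against 143 CPM, but rested on 3 of the 5 cells. H2-K1 was at 938 against 275 CPM and Cd74 at 717 against 89.1 CPM, seen in 3 and 2 of the 5 cells. Without the cell with the most UMIs of the gene, H2-K1 stood at 552, Cd74 at 34.5 and Krt7 at 1377 CPM in these cells.

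**Figure D3:**
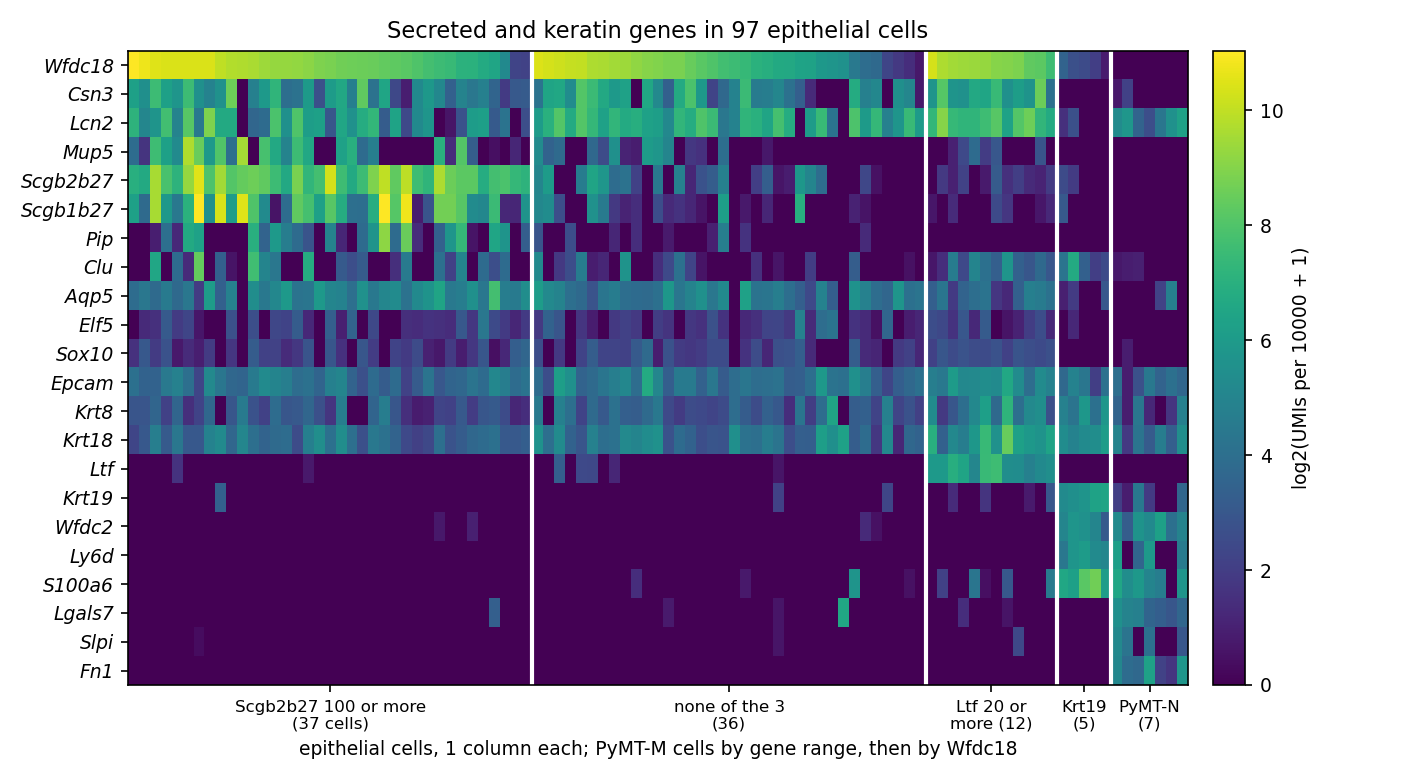
Levels of 22 genes as log2(UMIs per 10000 + 1), 1 column per epithelial cell, with PyMT-M cells divided by gene range (37, 36, 12 and 5 cells) and ordered by Wfdc18 within a range, and the 7 PyMT-N cells at the right. The Krt19 columns and the PyMT-N columns share signal in Wfdc2, Ly6d and S100a6, while Lgals7, Slpi and Fn1 appear mainly in PyMT-N.

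The label of epithelial cells held for most luminal markers that the rule did not use. Of 18 luminal epithelial genes, 18 had UMIs in the 90 cells, and the list summed to 114 per 10000 (112 to 116), with 32.1, 89.8 and 707 in the lowest, median and highest cell, against 2.23 in macrophages and 1.69 in stromal cells. The 3 luminal genes used by the rule, Epcam at 2181, Krt18 at 3021 and Krt8 at 1415 CPM, are part of this sum. Without them the other 15 genes summed to 47.5 per 10000 (46.2 to 48.8), with a median of 36.8 over cells and 1 cell at 0, against 2.18 in macrophages and 1.57 in stromal cells. Outside the rule, Spint2, encoding an inhibitor of membrane serine proteases, stood at 1567 CPM, Cldn3 and Cldn7, encoding tight-junction claudins, at 661 and 611 CPM, Cd24a at 610 CPM, Krt7 at 317 CPM and Cdh1, encoding E-cadherin, at 124 CPM. Macrophages held Cldn3 at 0.379, Cldn7 at 0.644 and Cdh1 at 2.92 CPM. Against macrophages, which were chosen without Epcam, 13 of 14 measured luminal genes outside the rule were at least 2-fold higher, with a median log2 ratio of 8.41. Over all 12219 genes with 20 UMIs in both groups together, 23.4% were at least 2-fold higher and 21.6% at least 2-fold lower, with a median of 0.08. In these counts a group at 0 was set to the limit of 3 UMIs. Spint1, encoding a serine protease inhibitor, was the exception, at 84.6 CPM against 192 CPM in macrophages. Of the milk list 7 of 9 measured genes were higher and 1 lower, and of the secretoglobin and WAP list 5 of 7 were higher and 1 lower.

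Basal markers were low. The 13 basal and myoepithelial genes summed to 0.362 per 10000 (0.261 to 0.490), or 1.24 as a mean over cells, 79 of the 90 cells held none of them, and Krt5, Krt14, Krt15 and Krt17 were at 0 UMIs. Lgals7, encoding a galectin of stratified epithelium, gave 35 of the list's 42 UMIs, 24 of them in 1 cell. The stromal cells stood at 9.10 per 10000, where Acta2, encoding smooth muscle actin, led with 528 CPM.

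Regulators of the alveolar and progenitor lineage were present. Elf5 stood at 296 CPM in 69 cells, Sox10, a factor of progenitor-like breast cells, at 334 CPM in 73 cells, Ehf, an epithelial ETS factor, at 180 CPM in 61 cells, and Kit, encoding a receptor of luminal progenitors, at 103 CPM in 48 cells. The luminal progenitor list of 11 genes summed to 13.8 per 10000 (13.2 to 14.5), against 2.54 in macrophages and 3.26 in stromal cells. Against macrophages, 8 of its 10 measured genes were higher and 1, Cd14, lower. The hormone-sensing list summed to 4.57 per 10000 (4.18 to 4.97), against 1.45 in macrophages and 5.96 (4.46 to 7.79) in stromal cells, and was led by Gata3 at 119 CPM and Prlr, encoding the prolactin receptor, at 93.2 CPM. Esr1, encoding the oestrogen receptor, had 2 UMIs and Pgr, encoding the progesterone receptor, 0. Among growth factor receptors, Ddr1 at 101, Fgfr1 at 95.8 and Erbb3 at 61.3 CPM stood above Erbb2 at 11.2 CPM. Vim, encoding vimentin, stood at 993 CPM, between 524 CPM in macrophages and 4910 CPM in stromal cells, while Fn1 was at 0 UMIs.

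Genes of other cell types were low but not absent. The 12 pan-leukocyte genes summed to 2.66 per 10000 against 84.4 in macrophages, with all 12 at least 2-fold lower and a median log2 ratio of -7.18. The 14 macrophage genes summed to 3.89 per 10000 (3.54 to 4.27) against 551, or to 2.41 with C1q under 5 per 10000 and 6.31 with any Ptprc allowed, ranged from 0 to 54.7 per 10000 over the cells, and 25 of the 90 cells held none. The members of these lists did not keep macrophage proportions. Lcp1, encoding plastin-2, stood at 129 CPM against 496 CPM in macrophages. Apoe, by contrast, stood at 94.1 against 25334 CPM, Lyz2 at 13.0 against 5736 CPM and Cd52 at 18.1 against 2798 CPM. The T and NK cell list gave 1 UMI in all 90 cells, the B cell list 1, and the fibroblast list 4. The endothelial list summed to 0.242 per 10000 against 81.2 in stromal cells, with Cdh5, Kdr and Emcn at 0 UMIs. The neutrophil list reached 18.9 per 10000, but G0s2, which also serves fat metabolism, gave 1891 CPM of it, and 8 of its 10 genes were at 0. Kcnj8, a potassium channel gene on the pericyte list, stood at 124 CPM in 30 cells, while Rgs5 had 1 UMI. The rule capped C1q and Ptprc, so the macrophage and leukocyte sums were held down by the choice of cells, and the part of free RNA in them was not tested.

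**Figure D4:**
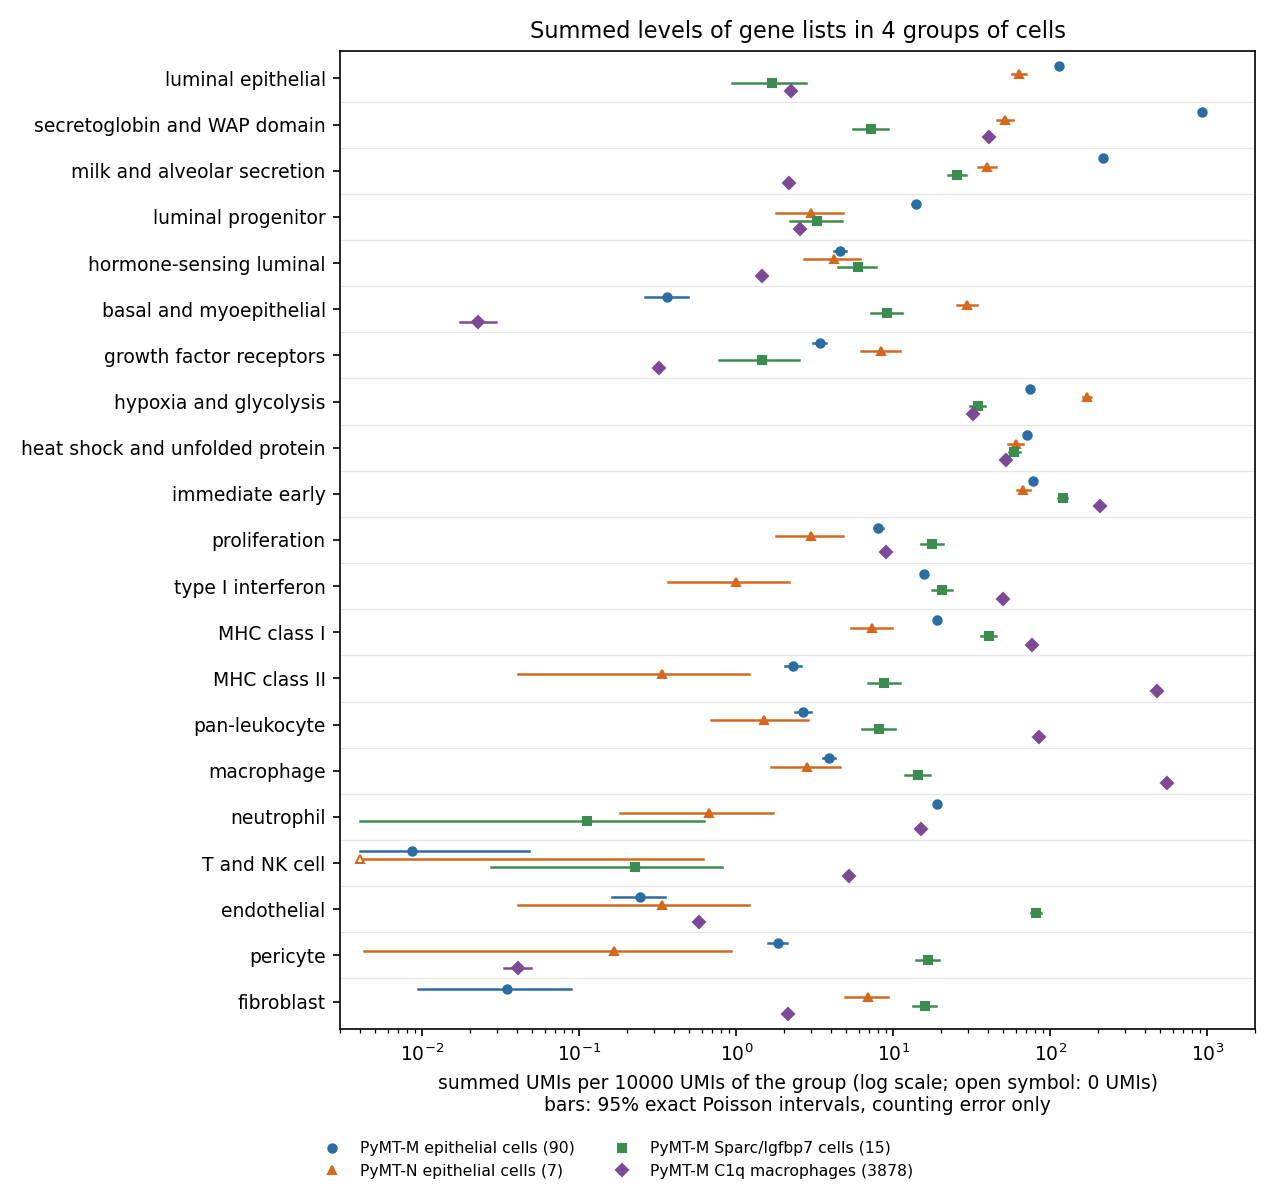
Summed UMIs of 21 gene lists per 10000 UMIs, on a log axis, in the epithelial cells of both lines and in stromal cells and C1q macrophages of PyMT-M, with 95% exact Poisson intervals (clipped at the left edge). The PyMT-M epithelial cells lie highest for luminal, secretory and progenitor lists and lowest of the 3 PyMT-M groups for the class I, class II and interferon lists.

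Antigen presentation was low in the epithelial cells. MHC class I genes, which encode the molecules that show peptides to killer T cells and the machinery that loads them, summed to 19.0 per 10000 (18.2 to 19.8), against 40.3 (36.3 to 44.7) in stromal cells and 76.6 (76.2 to 76.9) in macrophages. H2-K1 stood at 296 CPM, 0.169 of its level in macrophages (0.152 to 0.188) and 0.586 of that in stromal cells (0.428 to 0.818). H2-D1 stood at 282 CPM, or 0.145 and 0.375 of those levels. B2m, encoding the light chain of every class I molecule, stood at 243 CPM, or 0.137 and 0.194. Psmb9, an immunoproteasome gene, stood at 15.5 CPM against 78.7 in stromal cells and 207 in macrophages. Of 13 class I genes, 10 were at least 2-fold lower than in macrophages with a median log2 ratio of -2.44, and of 11 measured against stromal cells 6 were lower and 0 higher, where 15.6% of all 6409 tested genes were at least 2-fold lower, 18.9% higher and the median was 0.08. Calr and Pdia3, chaperones that also serve general protein folding, did not share this: Calr stood at 392 CPM against 303 and 344. The non-classical class I gene H2-T23 stood at 207 CPM, against 33.7 CPM, 3 UMIs, in stromal cells and 164 CPM in macrophages. Nlrc5, the class I transactivator, was at 0 UMIs against 16.8 CPM in macrophages, at least 6.48-fold lower.

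Class II and type I interferon genes were also below macrophages. Cd74, the class II invariant chain, stood at 109 CPM against 27138 CPM in macrophages and 461 CPM in stromal cells, and all 7 class II genes were at least 2-fold lower than in macrophages. The 28 type I interferon genes, which cells switch on when they sense interferon, summed to 15.6 per 10000 (14.9 to 16.4), against 20.3 (17.5 to 23.5) in stromal cells and 49.7 in macrophages. Of 27 measured, 24 were at least 2-fold lower than in macrophages and 0 higher, with a median log2 ratio of -2.25. Against stromal cells 6 of 13 were lower and 2 higher. Ifi27l2a, an interferon-inducible gene, gave 988 of the epithelial UMIs and stood at 853 CPM, but 5 cells held 78.7% of them. It was seen in 36 cells. Bst2, encoding the virus-tethering protein tetherin, stood at 174 CPM against 1031 CPM in macrophages, Isg15 at 115 against 474, Irf7 at 97.5 against 462, and Ifit3 at 0.863 CPM, 1 UMI, against 149. The list ranged from 0 through 4.35 to 127 per 10000 over the 90 cells, with 11 cells at 0.

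**Figure D5:**
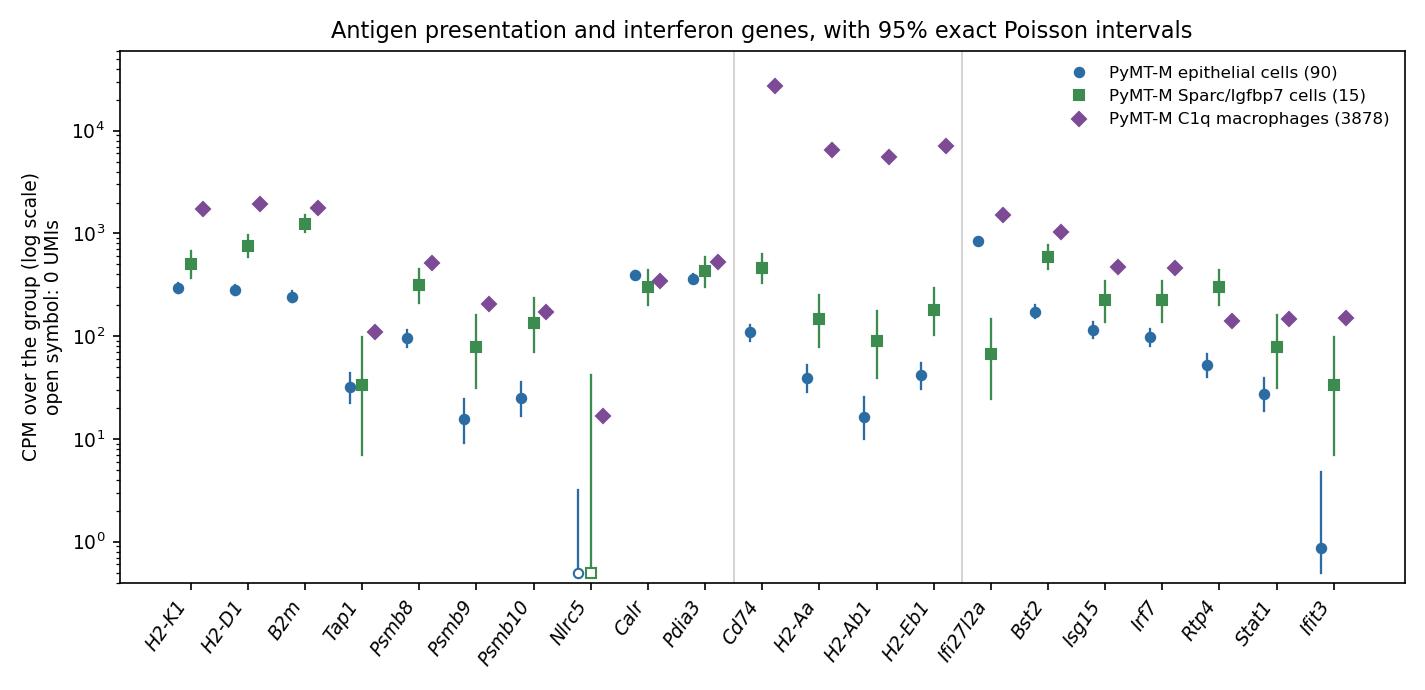
CPM on a log axis of class I genes (left), class II genes (middle) and type I interferon genes (right) in PyMT-M epithelial cells, stromal cells and C1q macrophages, with 95% exact Poisson intervals. H2-K1, H2-D1 and B2m lie at 296, 282 and 243 CPM in epithelial cells, below both other groups, while Calr and Pdia3 lie between 303 and 530 CPM in all 3.

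Xbp1 and many hypoxia and glycolysis genes were higher than in macrophages. Xbp1, the transcription factor that expands the secretory apparatus, stood at 1967 CPM, 9.09-fold its macrophage level (8.65 to 9.54) and 12.5-fold its stromal level (7.44 to 22.9). The heat shock and unfolded protein list as a whole stood at 71.4 per 10000 against 52.4 in macrophages, with 3 of 16 genes at least 2-fold higher and 4 lower and a median log2 ratio of -0.25. Hypoxia and glycolysis genes summed to 74.4 per 10000 (72.9 to 76.0), against 34.4 in stromal cells and 32.2 in macrophages, and 12 of 21 were at least 2-fold higher than in macrophages and 2 lower, with a median log2 ratio of 1.15. Mif, encoding macrophage migration inhibitory factor, stood at 1270 CPM, 4.52-fold the macrophage level (4.27 to 4.78), and Ldha, encoding lactate dehydrogenase, at 1254 CPM, 2.14-fold (2.02 to 2.26). Egln3, encoding an oxygen-sensing hydroxylase, stood at 141 CPM against 1.59 CPM.

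Early response, signalling and cell-cycle lists had more genes lower than higher against macrophages. At least 2-fold, 6 of 15 immediate early genes were lower and 1 higher, and 4 of 20 proliferation genes lower and 1 higher. Of 14 measured cytokine and chemokine genes 8 were lower and 3 higher. Of 12 ligands read by immune cells, such as Cd47, 5 were lower and 2 higher. Over all 12219 tested genes 21.6% were lower and 23.4% higher. In these counts a group at 0 was set to 3 UMIs. The immediate early list stood at 77.7 per 10000 against 119 in stromal cells and 206 in macrophages. Fos stood at 1213 against 4287 CPM in macrophages and Dusp1, a MAP kinase phosphatase gene, at 174 against 1950 CPM, whereas Ier3 stood at 792 against 271 CPM. Among secreted signals, Tgfb2 stood at 40.6 CPM against 0.0757 CPM, 2 UMIs, in macrophages, Csf1, the macrophage growth factor gene, at 21.6 against 2.80, and Tgfb1 at 40.6 against 610. Of the 23 cytokine and chemokine genes, 12 were at 0 UMIs. Cd47, the signal that tells phagocytes to spare a cell, stood at 74.2 against 344 CPM in macrophages, and Cd274, which encodes PD-L1, was at 0 UMIs against 25 CPM, at least 9.67-fold lower. The proliferation list stood at 8.01 per 10000 against 9.0 in macrophages and 17.6 in stromal cells. After thinning to 2000 UMIs, 5 of 76 epithelial cells held 5 or more proliferation UMIs, a share of 6.58% (2.17 to 14.7), against 8.08% of macrophages (7.22 to 9.01), which was not distinguishable at this number of cells.

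Against all other kept PyMT-M cells, the genes with the largest ratios were Prol1, Car6, Mup5, Krt18, Ltf, Cldn7 and Krt19, with log2 ratios of 7.09, 7.01, 6.85, 6.80, 6.63, 6.56 and 6.56 after 1 CPM was added to each level. Among them Krt18 was used by the rule, so its ratio describes the choice of cells. Folr1, Plet1 and Kcnn4 were among the genes farthest above the stromal cells, which had 0 UMIs of each: at least 25.2-fold, 23.8-fold and 22.6-fold higher. Sparc and Igfbp7 were capped by the rule, but Igfbp3, a growth factor binding protein gene, and the endothelial genes Gpihbp1 and Egfl7 were not, and stood at 0 UMIs against 7640, 2292 and 1281 CPM in the stromal cells. With 1 CPM added to each level, 1901 of 6409 tested genes, or 29.7%, were at least 2-fold higher than in stromal cells and 2638 of 12219 higher than in macrophages. For stromal cells this count rested on genes at 0 in the 15 shallow cells: it was 1210 when a group at 0 was set to 3 UMIs. Of all 2-fold calls against stromal cells 66.6% were higher, or 55.8% when levels were scaled by the median ratio over genes, which moved the median log2 ratio of all genes from 0.23 to -0.02.

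Wfdc18 was also found outside the rule. In PyMT-M, 66 further kept cells held Wfdc18 at 100 per 10000 or more, beside 69 of the 90 epithelial cells. Of the 66, 31 carried Ptprc or C1q over the limit and had a median of 14648 UMIs, above the 12728 of the epithelial cells. The other 35 had a median of 755 UMIs, and 29 of them held under 2000. In PyMT-N, 0 kept cells reached that level, and Wfdc18 had 67 UMIs in all kept cells, 4.5 CPM against 2234 CPM in PyMT-M.

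The 7 PyMT-N epithelial cells carried a different set of secreted genes. They held 59962 UMIs, with 4384 to 15738 per cell and a median of 7458. Wfdc18, Scgb1b27, Scgb2b27, Mup5, Ltf, Pip, Elf5 and Kit were at 0 UMIs in all 7, which allows up to 50 CPM, and Wfdc18 was therefore at least 1107-fold lower than in the PyMT-M cells. Wfdc2 was seen in all 7, with 7, 27 and 60 UMIs in the lowest, median and highest cell, and stood at 3569 CPM (3107 to 4080) against 94.1 CPM (77.3 to 113). Lcn2 was seen in all 7 too, at 3452 against 12540 CPM. Fn1, encoding fibronectin, had 1, 16 and 59 UMIs in the lowest, median and highest cell and stood at 2802 CPM, against 0 UMIs in PyMT-M. Lgals7 had 3, 8 and 71 UMIs and stood at 2585 against 30.2 CPM. Slpi, encoding a WAP-domain protease inhibitor, stood at 1534 against 5.18 CPM, seen in 4 cells, and Krt15, a basal keratin gene, at 300 CPM in 3 cells against 0 UMIs. S100a6 stood at 5253 against 472 CPM, and Ly6d at 3052 against 111 CPM, the latter in 4 cells. These genes were chosen after their values had been seen.

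With 200 UMIs required over both groups, 920 genes could be compared between lines, of which 11.5% were at least 2-fold higher and 37.7% at least 2-fold lower in PyMT-N after 1 CPM was added to each level, or 37.8% lower with a group at 0 set to 3 UMIs. Of 11 luminal genes measured, 1 was higher, Krt19 at 584 against 211 CPM, and 6 lower, with a median log2 ratio of -1.03 beside -0.57 over all 920. Epcam, Krt8 and Krt18, by which the cells of both lines were chosen, are among the 11, and the list was not compared between lines without them. Of these, Krt18 stood at 1851 against 3021 CPM and Epcam at 1067 against 2181 CPM. Of 9 hypoxia and glycolysis genes 4 were higher and 1 lower, with Gapdh at 5854 against 872 CPM. The whole list summed to 171 per 10000 in the PyMT-N and 74.4 in the PyMT-M epithelial cells. In the C1q macrophages of the same libraries it summed to 84.3 and 32.2, so a higher level in PyMT-N was not particular to the epithelial cells. The type I interferon list summed to 1.00 per 10000 (0.367 to 2.18) against 15.6, and class I genes to 7.34 (5.33 to 9.85) against 19.0. The interferon value of 15.6 was pooled, and the median over the 90 PyMT-M cells was 4.35. In the C1q macrophages the interferon list summed to 34.7 in PyMT-N and 49.7 in PyMT-M, and class I genes to 54.1 and 76.6. Lower levels in PyMT-N were thus not particular to the epithelial cells. The fibroblast list summed to 6.84 per 10000 in the PyMT-N cells, 41 UMIs, and 0.0345 in the PyMT-M cells, 4 UMIs. The basal list summed to 29.5 and 0.362. Of its 177 UMIs in PyMT-N, Lgals7 gave 155, 71 of them in 1 cell, and Krt15 gave 18. Krt5 and Acta2 were at 0 UMIs there, Krt14 had 1, and 8 of the 13 list genes were at 0. In PyMT-N 4 of the 7 cells held 1 to 4 Sparc or Igfbp7 UMIs, against 4 of 90 in PyMT-M, and the part of stromal RNA in the fibronectin and fibroblast values was not tested. Line, tumour, library and the number of cells found differ together here and cannot be told apart.

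The 5 Krt19-high cells of PyMT-M and the 7 PyMT-N cells both held Wfdc2, Ly6d and S100a6 but differed in other genes. Wfdc2 stood at 2813 and 3569 CPM, Ly6d at 3557 and 3052 CPM and S100a6 at 11913 and 5253 CPM. Krt19 stood at 6094 in the 5 cells and 584 CPM in the 7, Krt7 at 2178 and 267 CPM, AW112010 at 6122 and 83.4 CPM, and Cited1 at 910 and 33.4 CPM. Fn1, Lgals7, Slpi and Krt15 were at 0 UMIs in the 5 cells, at 2802, 2585, 1534 and 300 CPM in the 7. Csn3 was at 0 UMIs in the 5 cells and at 83.4 CPM in the 7.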

How the data were processed

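CD45-sorted cells of tumours of 2 lines, 1 library per line, were read as deposited: matrices of unnormalised UMI counts, genes by barcodes, which the authors made with Cell Ranger and Seurat on build mm10, per the submitters' processing notes, and with software 3.1.0, per the file headers. Symbols shared by several identifiers (35) were summed. Cells, limits and groups are given in the report. The members, the gene lists and the genes named were chosen with earlier results of these data known. UMIs were summed over cells and given per 10000 or as CPM. Intervals are 95% exact Poisson, Clopper-Pearson or conditional binomial. Ratios used 1 CPM as pseudocount, or a floor of 3 UMIs for a group at 0, over genes with 20 UMIs in both groups together. The minimum of 200 for the comparison of lines, the floor counts, the gene ranges, the Krt19 and Ltf correlations and the PyMT-N genes were set after values had been seen.

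Named genes were those of the rule, the 20 with the largest ratio to other cells, 10 per direction against stromal cells, 2 per list by CPM and 2 by ratio, the 10 highest by CPM and by Fano factor, and 5 by correlation. Others were chosen after their values were seen. Scrublet marked 0 cells by its automatic threshold, so doublets stayed in, and leaving out the highest scores was an alternative. Other alternatives changed the mitochondrial, gene, keratin, Ptprc, C1q and stromal limits, the scaling, the pseudocount and the minimum. Positions are from GENCODE M21 (GRCm38) by identifier, promoters from RefSeq (GRCm38.p6). The ratio and its interval were tested on simulated data. Python 3.11.15, numpy 2.4.6, scipy 1.17.1, pandas 2.3.3, scanpy 1.11.5 and matplotlib 3.10.9 were used.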

Additional observations from a re-analysis of the deposited data

Results flagged for a closer look

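Transcripts of the secretory programme were found in barcodes that the cell filters removed. In the 119 PyMT-M barcodes with under 200 genes or over 10% mitochondrial UMIs, Wfdc18 stood at 4927 CPM (4629 to 5238) and Scgb1b27 at 3895 CPM, against 2234 and 761 CPM in the kept cells, and 7 of the 119 held Wfdc18 at 100 per 10000 or more.

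Marker lists of other cell types moved apart between the lines. The fibroblast list stood lower in epithelial cells than in C1q macrophages in PyMT-M, by -5.96 on the log2 scale. It stood higher in PyMT-N, by 3.78, so the lines differed by 9.74. This rests on 4 UMIs in the PyMT-M and 41 UMIs in the PyMT-N epithelial cells, with 8 of the 11 list genes at 0 in each. The reference moved as well: the C1q macrophages held the list at 2.14 per 10000 in PyMT-M and 0.497 in PyMT-N. The dendritic cell list stood at -2.64 in PyMT-M and 1.11 in PyMT-N, a difference of 3.75, which rests on 1 UMI in the 7 PyMT-N cells. Neither difference was tested, since there was 1 library per line.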

How the results depend on the processing

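No paired analysis was possible because each line had 1 library and the labels give no replicate numbers. The count of 90 PyMT-M cells ranged from 67, with 10 keratin UMIs required, to 102, with 1. The 7 PyMT-N cells became 4 with 10 keratin UMIs and 3 with under 2 stromal UMIs. In the order maximum 5% mitochondrial, 1 keratin UMI, 10 keratin UMIs, any Ptprc and stromal UMIs under 2, the luminal list stood at 116, 111, 119, 108 and 112 per 10000, and the secretoglobin and WAP list at 966, 899, 927, 952 and 933. The luminal list was 116 without the highest doublet scores. The secretoglobin and WAP list was 932 with C1q under 5 per 10000, 731 without the 5 deepest cells and 812 as a mean over cells. With at least 1% mitochondrial UMIs, an alternative chosen after seeing the data, the luminal list was 119, the secretory list 740, the interferon list 17.0 and the class I list 19.9. As a mean over cells the interferon list was 14.3. The class I list was 17.4 at 5% mitochondrial, 20.1 with any Ptprc and 20.2 without the 5 deepest cells. The proliferating share was 33.3% without thinning. Genes higher than in stromal cells numbered 4597 with no minimum and 500 with a minimum of 100 UMIs, and those higher than in macrophages 1707 with 100 UMIs and 1716 with a pseudocount of 10 CPM. Median-ratio scaling moved the stromal split from 66.6% to 55.8% higher. Of 286 values of 22 other lists, 233 stayed within their counting interval and 14 moved over 1.5 times. These included the T and NK cell list, at 3.69 with any Ptprc. Leaving the rule's genes out of the luminal list and the top cell out of a range, both given in the report, were alternatives chosen after seeing the data. With 1 library per line, and with 5 Krt19-high, 7 PyMT-N and 15 stromal cells, values of these groups carry wide or unknown error.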
